A study of Mus musculus with 10 samples.

Results

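The transcription factors that commit blood progenitors to the myeloid lineages were examined as 9 genes: Cebpa, Cebpb, Cebpd and Cebpe, which encode C/EBP factors, Spi1, which encodes PU.1, the repressor genes Gfi1 and Gfi1b, Irf8 and Klf4. They were taken as all probes that carry 1 of these symbols alone. This gave 16 of the 34885 probes with a single symbol, for 9 of 19057 genes. RNA came from LSK cells, which lack lineage markers, carry Sca1 and cKit, and hold the stem cells and multipotent progenitors of the marrow. One array was run per mouse, for 5 LysM-KI and 5 control mice of 9 to 16 weeks. LysMCre is given as the strain of both groups. In that line Cre recombinase is made from the Lyz2 locus, a gene most active in mature myeloid cells. The labels call the mutant group LysM-KI without naming the knocked-in allele, so the comparison asks only how the factors differ between LSK cells of mice with these labels.

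In the usual picture of myelopoiesis, PU.1 and C/EBPα open granulocyte and monocyte genes in multipotent cells. Gfi1 then favours granulocytes and Irf8 favours monocytes and dendritic cells, with Klf4 acting in monocytes. C/EBPε acts late, in maturing granulocytes, while C/EBPβ and C/EBPδ are better known from stress and inflammation. Gfi1b, the close relative of Gfi1, acts in erythroid cells, megakaryocytes and stem cells. Gfi1 and Gfi1b bind the same AATC core through their zinc fingers and repress their own and each other's genes.

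The arrays detected 15234 to 18801 probes each, a probe counting as detected where its detection p was under 0.05, that is, where it was brighter than nearly all negative controls of its array. A probe entered the tests, and is called kept here, if 5 or more arrays detected it, which left 17245 of 45281. Control replicate 4 stood apart from the other arrays. It had the fewest detected probes and a median correlation with the other arrays of 0.765, against 0.820 to 0.879 for each of the rest. It also held the lowest value for 21.2% of the kept probes. Its Xist level was high, at 11.81 on the log2 scale, as was that of LysM-KI replicate 4 at 11.69. Control replicate 5 was at 7.08 and every other array at 4.68 to 5.17. Without control replicate 4 no control array has an Xist level near that of LysM-KI replicate 4. Fold changes that turned sign or moved by over 1.5 times without this array are given with and without it. Of the genes of the LSK gate, Kit, Flt3, Cd34, Cd48 and Procr were detected on all 10 arrays, and none of the 7 monocyte and macrophage markers with a probe was kept. In sorted cells measured in bulk, fewer cells that carry a transcript and less of it per cell cannot be told apart.

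Detection divided the 9 factors. Cebpd, Gfi1, Gfi1b, Irf8 and Klf4 had 7 kept probes between them. The only probes of Cebpa, Cebpb and Spi1 and all 4 probes of Cebpe were at background, as were the 2 other probes of Klf4. The kept share was 43.8% of the member probes, against 38.1% of all probes. Sequences of the probes were not used here, so whether a dark probe reflects little RNA or a poor probe was not tested.

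Cebpa, whose product starts the granulocyte and monocyte programme, was detected in none of the 10 mice. Its intensity was 131.8, 142.4, 129.7, 109.6 and 104 in LysM-KI replicates 1 to 5, against 114.9, 104.4, 121.7, 107.3 and 121.6 in control replicates 1 to 5, and the lowest detection p was 0.0748. The intensities of the groups overlapped, and since both lay at background no fold change was taken.

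Spi1 had an intensity of 124.4, 114.3, 111.6, 116.4 and 104.8 in LysM-KI replicates 1 to 5, against 127.8, 91.3, 149.1, 116 and 105.7 in control replicates 1 to 5. Control replicate 3 alone passed the detection threshold, with a p of 0.0342. Cebpb, a C/EBP gene of emergency granulopoiesis, had intensities of 96.7 to 118.3 in LysM-KI mice, against 89.8 to 129.8 in control mice, and was detected in none. Of the 4 Cebpe probes, 1 was detected in 1 LysM-KI mouse. Over the 9 probes that were not kept, 2 of 90 array values were called detected, 2.22%. The threshold by itself lets through about 5% of values at background. Since probes detected on 5 or more arrays had been taken out beforehand, setting this share beside 5% is no test of background.

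**Figure D1:**
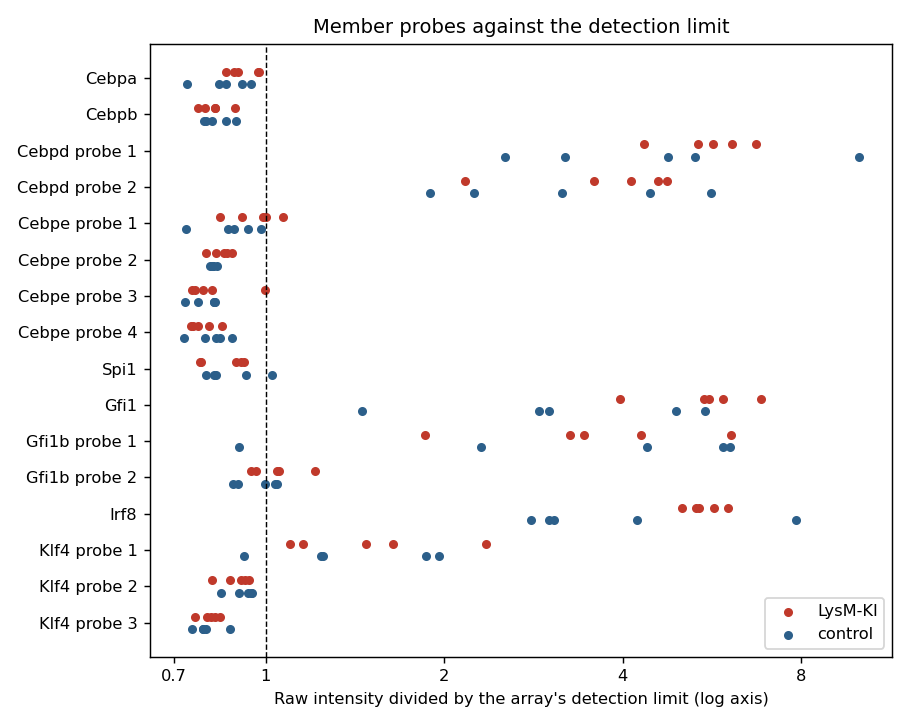
Raw intensity of the 16 probes of the 9 factors on each array, divided by the lowest intensity called detected on that array (log axis), with LysM-KI arrays above control arrays for each probe. The dashed line is the detection limit, and both Cebpd probes, Gfi1 and Irf8 lie above it on all 10 arrays.

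Transcripts known as targets of C/EBP factors and PU.1 were measured in these cells. Of the 16 genes on a list of such progenitor targets, 11 had a kept probe, where 46.7% of all genes on the array had one. Mpo, the myeloperoxidase of primary granules, Ctsg, the granule protease cathepsin G, and Lyz2 were detected on all 10 arrays. Csf1r, the receptor for M-CSF, Elane, the neutrophil elastase gene, Itgam, Cd14 and Fcgr3 had no kept probe.

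Gfi1 and Irf8 were the factors with the largest differences between the groups, and neither passed the adjusted threshold. The table as a whole had 0 of 17245 probes past an adjusted p of 0.05 in limma, 0%, and 922 at an unadjusted p under 0.05, 5.35%. LysM-KI levels were above control for 587 of these, 3.4% of all kept probes, and below for 335, 1.94%. Under cyclic loess normalization 430 were above and 450 below, and under median scaling, which put the median of all kept probes at 0.13, 783 and 180. Of the 7 kept member probes, 1 had an unadjusted p under 0.05, that of Gfi1. The groups overlapped on all 7, while 0.91% of all kept probes had groups that did not overlap.

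All 7 kept probes had a log2 fold change above 0, against 53.4% of all kept probes. The median over the 5 genes was 0.45, beside 0.03 over all kept probes. Without control replicate 4 the bright Gfi1b probe was below 0, and the median over the 5 genes was 0.37, the value of Cebpd. All 7 also had their lowest value in a control mouse, as did 64.7% of all kept probes. The lowest value was in control replicate 4 for Gfi1 and for both Gfi1b probes, in control replicate 5 for both Cebpd probes and Klf4, and in control replicate 3 for Irf8.

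The stretches upstream of Gfi1, Gfi1b and Irf8 are shown because the products of the first and second genes bind a common core, which can be looked for in all 3. Each is the 250 bases before a RefSeq start in GRCm38.p6, read 5′ to 3′ on the strand of the gene, with every AATC, or GATT where the core lies on the other strand, in capitals. Gfi1 is at chr5:107725806-107726055 on the minus strand, Gfi1b at chr2:28621983-28622232 on the minus strand, and Irf8 at chr8:120736108-120736357 on the plus strand.
Gfi1: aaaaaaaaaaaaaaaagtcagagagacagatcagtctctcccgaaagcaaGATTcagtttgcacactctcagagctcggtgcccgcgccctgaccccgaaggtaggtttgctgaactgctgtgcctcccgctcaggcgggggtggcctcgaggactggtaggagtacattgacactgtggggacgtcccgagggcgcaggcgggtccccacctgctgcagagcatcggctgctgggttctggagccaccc
Gfi1b: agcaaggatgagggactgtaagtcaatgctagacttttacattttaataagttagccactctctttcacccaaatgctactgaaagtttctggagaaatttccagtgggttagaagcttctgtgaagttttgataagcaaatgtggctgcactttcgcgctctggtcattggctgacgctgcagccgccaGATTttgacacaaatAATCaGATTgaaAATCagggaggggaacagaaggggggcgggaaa
Irf8: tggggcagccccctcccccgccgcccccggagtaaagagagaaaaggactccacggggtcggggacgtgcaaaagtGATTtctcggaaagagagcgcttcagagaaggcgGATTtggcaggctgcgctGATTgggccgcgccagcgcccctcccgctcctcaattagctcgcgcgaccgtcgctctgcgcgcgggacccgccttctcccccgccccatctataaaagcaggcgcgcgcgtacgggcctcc
The Gfi1b stretch held 4 cores, at 60, 45, 40 and 33 bases before the start, the Irf8 stretch 3 and the Gfi1 stretch 1, with none overlapping another. Among 32851 such stretches, 69.0% held at least 1 core, 17.7% at least 3 and 7.04% at least 4. The Gfi1b stretch also held 1 GATA site, spelled GATAAG or CTTATC, which 6.55% of all stretches held. RefSeq windows were at hand for 6 of the 9 genes. Those of Cebpa, Cebpb and Klf4 and a second one of Gfi1 held no AATC core, and a second one of Irf8 held 1. No window of these 6 genes held the PU.1 core GAGGAA on either strand, which 23.3% of all windows held. The pattern TTGCNNCAA was also absent on either strand, and 1.74% of all windows held it. That pattern is not a palindrome, since its reverse complement is TTGNNGCAA, so its absence does not describe C/EBP sites. These letters describe the sequence and do not show binding.

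Gfi1 encodes a repressor that restrains proliferation of stem cells and directs granulocyte differentiation. Its probe ILMN_2790382 was detected in all 10 mice. On the normalized log2 scale its level was 9.36, 8.71, 9.47, 9.35 and 9.66 in LysM-KI replicates 1 to 5, against 9.23, 8.41, 9.04, 6.96 and 8.26 in control replicates 1 to 5. All 5 LysM-KI mice lay above the control mean, but the values of control replicates 1 and 3 fell within the LysM-KI range. The means were 9.31 ± 0.36 in LysM-KI and 8.38 ± 0.89 in control cells (SD, n = 5 each). The log2 fold change was 0.93 (SE 0.41, 95% interval 0.03 to 1.83), a 1.90-fold difference, with an adjusted p of 0.928 and an unadjusted p of 0.0440 in limma. Some 4.74% of all kept probes had a p as small or smaller. Without control replicate 4 the log2 fold change was 0.57, with an unadjusted p of 0.0841 in limma.

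Irf8 encodes an interferon regulatory factor that favours monocyte and dendritic cell fates and restrains granulocytes. Its level on probe ILMN_2673369 was 9.22, 9.22, 9.51, 9.38 and 9.23 in LysM-KI replicates 1 to 5, against 10.01, 8.51, 8.01, 8.93 and 8.13 in control replicates 1 to 5. The LysM-KI mice lay close together inside a wider control range, below control replicate 1 and above the 4 other controls. The means were 9.31 ± 0.13 in LysM-KI and 8.72 ± 0.81 in control cells (SD, n = 5 each). The log2 fold change of 0.59 (SE 0.36, 95% interval -0.20 to 1.39) had an adjusted p of 0.944 and an unadjusted p of 0.128 in limma. Leaving out control replicate 1, the highest control, gave 0.92 with an unadjusted p of 0.00477 and an adjusted p of 0.525 in limma. That mouse is singled out because of its value, so this p is no test. With any other single mouse left out the log2 fold change was 0.41 to 0.64, with an unadjusted p of 0.13 to 0.28 in limma.

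**Figure D2:**
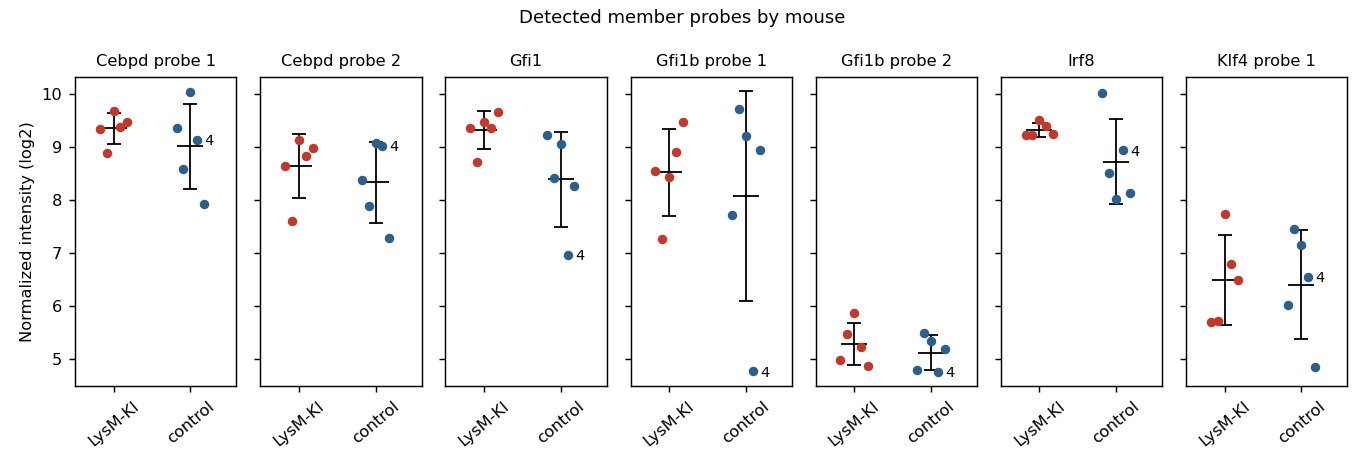
Normalized log2 intensity of the 7 kept probes in each LysM-KI mouse (red, left) and control mouse (blue, right), with bars for the mean and SD of 5 mice and control replicate 4 marked by its number. The groups overlap for every probe, and the Irf8 values of LysM-KI mice lie between 9.22 and 9.51.

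The spread between mice was therefore described beside the means. The SD of Irf8 among LysM-KI mice was 0.158 of that among control mice. A ratio this low or lower occurred for 0.789% of all kept probes, and for 0.528% to 1.66% under 5 other scalings. Spread was generally smaller among LysM-KI arrays, with a median ratio of 0.744 over all kept probes, or 0.832 without control replicate 4. Without that array the Irf8 ratio was 0.139 and its SD among the remaining control mice 0.918. The wide control range rested in part on control replicate 1: without it the control SD was 0.422 and the ratio 0.303, and 7.51% of kept probes had a ratio as low or lower. Without LysM-KI replicate 3 the ratio was 0.0957. With any other single array left out the Irf8 ratio lay between 0.139 and 0.174. For Gfi1 the ratio was 0.401, a value reached by 14.1% of kept probes, and by 2.78% (median scaling) to 22.2% (no background correction) under the other scalings. It was 0.764 without control replicate 4 and 0.159 without LysM-KI replicate 2. Gfi1b had a ratio of 0.411, which was 0.965 without control replicate 4, where its probe was at background, and 0.235 without LysM-KI replicate 2. Cebpd had a ratio of 0.368 on its brightest probe, and of 0.190 without LysM-KI replicate 2. The second kept probe of Cebpd had a ratio of 0.789, and the dimmer kept probe of Gfi1b had a ratio of 1.22. Klf4 had one of 0.822, and of 1.33 without control replicate 5 and 0.543 without LysM-KI replicate 3. Spread was not a planned comparison and was taken up once the Irf8 values had been seen. The share of probes at or under the Irf8 ratio therefore describes a value already seen. With 5 mice a group these ratios are imprecise, and they are given with no test.

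**Figure D3:**
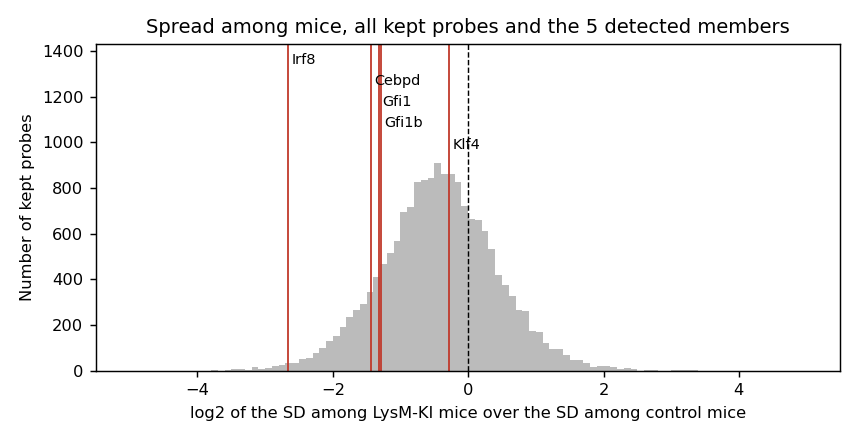
Histogram over all 17245 kept probes of the log2 ratio of the SD among LysM-KI mice to the SD among control mice, with red lines for the brightest probe of each of the 5 factors. Irf8 lies in the lower tail, at a ratio of 0.158, and Klf4 near the centre.

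Gfi1b, which represses genes in erythroid cells, megakaryocytes and stem cells, had 1 bright and 1 dim probe. On the bright probe, ILMN_2772930, its level was 8.55, 7.25, 8.43, 8.89 and 9.46 in LysM-KI replicates 1 to 5, against 7.72, 9.70, 9.20, 4.77 and 8.94 in control replicates 1 to 5. Control replicate 4 was at background, with an intensity of 112.5 and a detection p of 0.321, while the other 9 mice had intensities of 272.7 to 885.9. The means were 8.52 ± 0.81 in LysM-KI and 8.06 ± 1.98 in control cells (SD, n = 5 each). The log2 fold change of 0.45 (SE 0.84, 95% interval -1.39 to 2.29, limma adjusted p = 0.971) was -0.37 without control replicate 4, so its direction rested on that mouse. The dim probe was detected in 3 LysM-KI and 2 control mice, with 0.17 for its log2 fold change (SE 0.27, 95% interval -0.42 to 0.76, limma adjusted p = 0.962), and 0.08 without control replicate 4. Across the 10 arrays the Gfi1b probes were correlated at a Pearson r of 0.366 (permutation p = 0.308) and a Spearman rho of 0.297 (permutation p = 0.410), and at an r of 0.220 without the 2 arrays farthest from the median.

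Markers of the lineages in which Gfi1b acts differed in whether control replicate 4 was lowest. Car2, a carbonic anhydrase of red cells, was at 8.99 there and at 9.60 or more in every other mouse, on the brighter of its 2 kept probes. The other kept erythroid markers were not lowest there. Hbb-bt was at 9.06 and Car1 at 7.025 in that mouse, with lowest values of 7.22 and 5.92 elsewhere. Klf1, an erythroid activator, was at 7.18 there, with a lowest value of 4.84 elsewhere, and none of the 3 megakaryocyte markers was lowest there. The mean level of 4 erythroid markers was 8.06 in that mouse, with a range of 7.19 to 9.25 for LysM-KI mice and 7.20 to 10.47 for control mice. The mean of 3 megakaryocyte markers was 7.07 in that mouse, with 7.31 to 7.87 in LysM-KI and 6.79 to 7.73 in control mice. Gata2, a stem and progenitor factor, was at 8.48 there and at 9.03 or more in every other mouse. Tal1 was at 6.03 there, with a lowest value of 5.96 elsewhere, and none of Kit, Flt3, Cd34, Cd48 and Procr was lowest there.

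Cebpd, a C/EBP gene induced by cytokines, was the only C/EBP member with a kept probe, and both of its probes were bright in all 10 mice. On probe ILMN_2707363 its level was 9.32, 8.87, 9.67, 9.38 and 9.47 in LysM-KI replicates 1 to 5, against 9.34, 8.59, 10.03, 9.13 and 7.92 in control replicates 1 to 5. Control mice held both the highest and the lowest value. The log2 fold change was 0.34 (SE 0.37, 95% interval -0.47 to 1.16, limma adjusted p = 0.954), 0.07 without control replicate 5 and 0.60 without control replicate 3. The second probe gave 0.31 (SE 0.41, limma adjusted p = 0.960), and 0.47 without control replicate 4. The probes followed each other across the 10 arrays, with a Pearson r of 0.882 (permutation p = 0.00065) and a Spearman rho of 0.842 (permutation p = 0.00386), and an r of 0.717 without the 2 arrays farthest from the median.

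Klf4, a zinc finger factor of monocyte differentiation and of quiescence, was measured near background on 1 of its 3 probes. Its level there was 5.69, 5.72, 7.73, 6.79 and 6.48 in LysM-KI replicates 1 to 5, against 6.01, 7.46, 7.14, 6.54 and 4.84 in control replicates 1 to 5. It was detected in 5 LysM-KI and 4 control mice, and the ranges of the groups overlapped. The log2 fold change was 0.08 (SE 0.54, 95% interval -1.10 to 1.27, limma adjusted p = 0.991), 0.13 without control replicate 4 and -0.04 with cyclic loess.

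**Figure D4:**
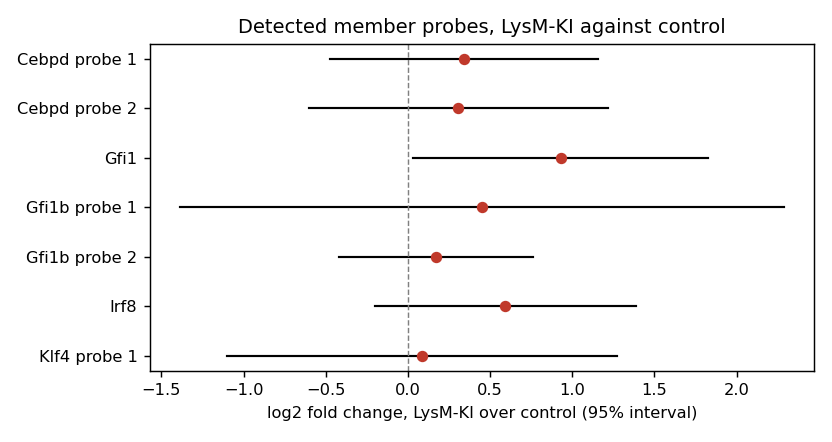
Log2 fold change of LysM-KI over control cells for the 7 kept probes, with 95% intervals from limma (5 mice a group). All points lie above 0, and only the interval of Gfi1, from 0.03 to 1.83, leaves out 0.

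Opposed factors were compared within each array, so that a shift equal for both genes cancels. A shift that differs between the genes does not cancel. Of 6 such pairs, 2 had kept probes on both sides, since Cebpa, Spi1 and Gata1 had none. Gfi1 minus Gfi1b was 0.79 ± 0.49 in LysM-KI and 0.32 ± 1.48 in control cells (SD, n = 5 each), higher by 0.48 on the log2 scale, with 4 of 5 LysM-KI mice above the control mean (exact permutation test, two-sided, p = 0.516, adjusted 0.563). In control replicate 4 the Gfi1b side of this difference was at background. The difference between the groups was 0.94 without that mouse and 0.07 without control replicate 2. Gfi1 minus Irf8 was -0.0033 ± 0.34 in LysM-KI and -0.34 ± 1.12 in control cells, and differed by 0.34 with 4 of 5 LysM-KI mice above the control mean (exact permutation p = 0.563, adjusted 0.563), and of -0.07 without control replicate 4. Each difference was smaller than the spread among control mice.

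Covariation was computed for the 10 pairs among the 5 detected factors over the 10 mice, and no pair passed the adjusted threshold. Gfi1 and Gfi1b had the highest Pearson r, 0.688 (permutation p = 0.0526, adjusted 0.388), with a Spearman rho of 0.200 (permutation p = 0.582, adjusted 0.812). The r was -0.047 without control replicate 4, and 0.0323 without the 2 mice farthest from the median of Gfi1, so the relation rested on that mouse. Cebpd and Gfi1 had an r of 0.479 (permutation p = 0.167, adjusted 0.556) and a rho of 0.697 (permutation p = 0.0302, adjusted 0.302). Their r was 0.806 without control replicate 4, and 0.409 without the 2 mice farthest from the median of Cebpd. Cebpd and Klf4 had an r of 0.580 (permutation p = 0.0777, adjusted 0.388) and a rho of 0.515 (permutation p = 0.133, adjusted 0.443), with an r of 0.712 without the 2 farthest mice, 0.838 without control replicate 2 and 0.215 without control replicate 5. Cebpd and Irf8 had an r of 0.322 (permutation p = 0.367, adjusted 0.734) and a rho of 0.333 (permutation p = 0.350, adjusted 0.699). That r was 0.846 without control replicate 3, where Cebpd was highest and Irf8 lowest (permutation p = 0.00347, adjusted 0.0347), and -0.475 without the 2 mice farthest from the median of Cebpd. The 6 other pairs had r between -0.258 for Gfi1b and Irf8 and 0.397 for Gfi1 and Irf8, which were -0.572 and 0.630 without control replicate 4, and adjusted permutation p from 0.650 to 0.981. Within groups, on deviations from the group means, r ran from -0.396 for Gfi1b and Irf8 to 0.750 for Gfi1 and Gfi1b, with adjusted permutation p from 0.571 to 0.955.

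**Figure D5:**
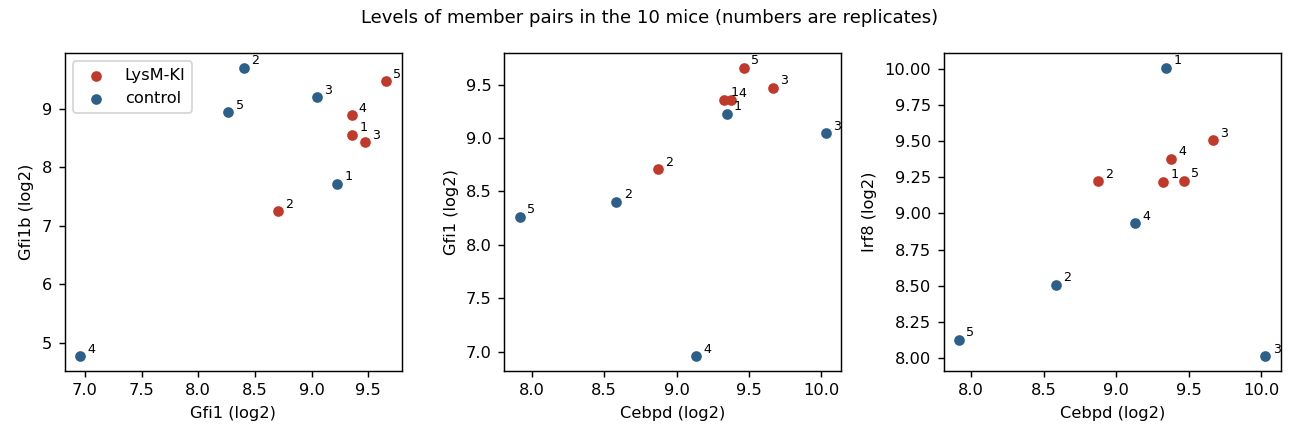
Normalized log2 levels of Gfi1 and Gfi1b, Cebpd and Gfi1, and Cebpd and Irf8 in the 10 mice, LysM-KI in red and control in blue, each point labelled with its replicate number. Control replicate 4 lies far from the other points in the first and second panels, and control replicate 3 in the third.

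The genes most like Cebpd, Gfi1 and Irf8 were sought among 5566 genes detected on all 10 arrays, by Pearson r of deviations from the group means over the 10 mice, as a description with no test. Cebpd was most like Fbxw11 (r = 0.980), Frg1 (0.972) and Mad2l1 (0.942). Gfi1 was most like Chmp1b (0.952), Kdm1a (0.938) and Csnk1g1 (0.936), and without control replicate 4 these were 0.891, 0.806 and 0.830. Irf8 was most like Zfp275 (0.945), Pdzd11 (0.936) and Ddx50 (0.928). The points share the same 10 arrays and whatever moves them as a whole.

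Partners, antagonists and targets of the factors were described by 6 lists, in which 0 genes rose and 0 fell at the adjusted threshold, the background over all kept probes being 0%. A kept probe was found for 46.7% of all genes on the array, and some lists also count genes without a probe. Of the partner and antagonist factors, 11 of 17 had a kept probe, 2 above 0 and 9 below 0, where 53.4% of all kept probes were above 0. Their log2 fold changes had a median of -0.29, beside 0.03 over all kept probes. Without control replicate 4 the count was 3 above and 8 below, with a median of -0.20. Fli1, an Ets family factor of stem cells and megakaryocytes, had the smallest p among them. Its level averaged 8.13 ± 0.59 across LysM-KI mice and 8.96 ± 0.48 across control mice (SD, n = 5 each), which gave -0.83 as log2 fold change with an SE of 0.34 (adjusted p in limma 0.881, unadjusted 0.0334). Runx1, the core-binding factor that acts with PU.1 and C/EBPα, was at -1.20 (SE 0.58, adjusted p in limma 0.934) on its brighter kept probe, while its other kept probe had the opposite sign. Myb and Cbfb, the partner subunit of Runx1, were detected on all arrays, at 0.04 (SE 0.23) and -0.04 (SE 0.21) on their brightest kept probes, and each had a kept probe of the opposite sign. Egr1, an early response factor, and Irf4, a relative of Irf8, were at -0.64 (SE 0.72) and -0.31 (SE 0.35), and Gata2 at 0.17 (SE 0.29). Without control replicate 4 Gata2 was at -0.03, Irf4 at -0.20, Myb at 0.09 and Cbfb at -0.02.

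Through Kdm1a and the CoREST scaffolds Gfi1 and Gfi1b recruit histone demethylase and deacetylase activity. Of 8 such corepressor genes, 6 had a kept probe, 5 above and 1 below 0, where 53.4% of all kept probes were above 0. The median was 0.10, or 0.20 without control replicate 4, beside 0.03 over all kept probes. Rcor1, a CoREST scaffold whose 2 kept probes had opposite signs, was at 0.39 (SE 0.25) on the brighter one, Rcor3 at 0.39 (SE 0.40), the deacetylase gene Hdac2 at 0.12 (SE 0.20), Rcor2 at 0.08 (SE 0.35) and Kdm1a at 0.05 (SE 0.24). Without control replicate 4 Kdm1a was at -0.09 and Rcor2 at 0.24. Of 7 relatives and regulators of the C/EBP factors, 4 were kept, 2 above and 2 below 0, with a median of 0.15, or -0.0022 without control replicate 4. Cop1, a ubiquitin ligase that with Tribbles proteins degrades C/EBPα, was at 0.36 (SE 0.22) on the brightest of 3 kept probes, the others having the opposite sign, and Ddit3, a C/EBP relative of the stress response, at 0.99 (SE 0.74). Trib2 was at -0.25 (SE 0.36) and Cebpg at -0.06 (SE 0.49). Control replicate 4 had the lowest values of Ddit3, 4.85, and of Cebpg, 6.07, where every other mouse had at least 6.67 and 7.47. Without it Ddit3 was at 0.39, Cebpg at -0.53 and Trib2 at -0.40.

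The progenitor targets of C/EBP factors and PU.1 were above 0 for 7 of 11 genes, where 53.4% of all kept probes were above 0. The median of their log2 fold changes was 0.43, beside 0.03 over all kept probes. Without control replicate 4 the count above 0 was 8 of 11, with a median of 0.52. Il6ra, the interleukin-6 receptor gene, was the only one with an unadjusted p under 0.05, at 1.88 (SE 0.73, limma adjusted p = 0.881, unadjusted 0.0250). Of all kept probes, 5.35% had an unadjusted p under 0.05 in limma. Ly86, a partner of a Toll-like receptor homologue, was at 0.85 (SE 0.41), Csf3r, the G-CSF receptor gene, at 1.31 (SE 0.71) on the brighter of 2 kept probes that differed in sign, and Mpo at 0.43 (SE 0.25). Of 11 late targets linked to C/EBPε, 4 were kept, 2 above and 2 below 0, with a median of -0.12, or -0.22 without control replicate 4. Among them the granule genes Ltf and Camp were at -0.50 (SE 0.37) and -0.58 (SE 0.73), and the oxidase subunits Ncf1 and Ncf4 at 0.60 (SE 0.48) and 0.27 (SE 0.36). Control replicate 4 had the lowest Ncf1 value, and without it Ncf1 was at 0.16. Of 10 monocyte and dendritic genes linked to Irf8 and Klf4, 4 were kept, 1 above and 3 below 0, with a median of -0.15. Zbtb46, a marker of classical dendritic cells, was at -0.93 (SE 0.53), detected in 1 LysM-KI and 4 control mice. Slc11a1 was at -0.30 (SE 0.25), Cst3 at 0.09 (SE 0.22) and F13a1 at -0.0098 (SE 0.55), the last 2 at 0.03 and -0.07 without control replicate 4.

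Markers of mature cells were set beside these values. The 2 kept mature neutrophil markers of 7, S100a9 and Cxcr2, had a mean level of 6.26 to 7.62 in LysM-KI and 6.27 to 9.60 in control mice, and S100a8, Retnlg, Il1b and Mmp9 had no kept probe. The 2 kept B cell markers, Cd79b and Ebf1, ran from 7.40 to 9.13 in LysM-KI and 5.82 to 8.52 in control mice, with control replicate 4 at the low end. The 3 kept T and NK cell markers ran from 6.41 to 6.69 in LysM-KI and 6.31 to 6.90 in control mice, and the 4 kept basophil and mast cell markers from 7.12 to 8.23 in LysM-KI and 7.23 to 9.03 in control mice. The ranges of the groups overlapped for each list, and the part of these cells in the results was not tested.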

How the data were processed

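The authors deposited a linear intensity per probe and array, not background-corrected, and beside it a fraction that the file headers call a detection p. The fraction rose with intensity on every array (lowest rank correlation 0.990), so 1 minus this fraction was used as the detection p. The authors' processed log2 values, whose scaling no label states, matched quantile-normalized log2 intensities centred on each probe's median within 0.0131 and served as an alternative. Their column medians ran from -0.000897 to 0.00404. RNA was amplified with the Ovation pico system before labelling, per the labels' protocols. Scanner software is not given in the sources used here.

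Intensities were normalized with neqc of limma 3.58.1 in R 4.3.3 (normexp with negative controls inferred from the detection p, offset 16, quantile, log2), and the offset pulls dim probes toward a fold change of 0. Probes detected on at least 5 of 10 arrays were tested with limma's empirical Bayes test, two-sided, 11.1 degrees of freedom, Benjamini-Hochberg over 17245 probes, on code tested on simulated data. Symbols came from the platform annotation, updated through Entrez identifiers: 34885 probes had 1 symbol, 18 several and 10378 none. The brightest kept probe stood for a gene. Levels were not compared between probes. Members were all named. From each list, genes with an unadjusted p under 0.05 and up to 4 with the smallest p could be named, as could the 3 genes most like each member detected on all arrays. Other genes, named for detection or for their value in control replicate 4, were chosen after their values were seen. Correlations had 100000 resamples and were adjusted over 10 pairs. The number of arrays limits the precision. Members, lists and tests were chosen with earlier results of these data known. Groups were compared without pairing: correlations of deviations between arrays of one replicate number ran from -0.0305 to 0.0605, and no label ties them. Labels describe individual mice. Other normalizations, offsets, filters, array weights, a replicate block and the leaving out of arrays were tried.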

Additional observations from a re-analysis of the deposited data

How the results depend on the processing

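No alternative gave a probe past the adjusted threshold: the count was 0 under all 20 settings, including 0 to 0 with each array left out. At an unadjusted p under 0.05 the 922 probes became 531 among probes detected on all 10 arrays and 1848 with no filter. The log2 fold changes of Gfi1 (0.57 to 1.15), Irf8 (0.41 to 0.92) and Cebpd (0.07 to 0.60) kept their sign under every alternative, with adjusted p of at least 0.525 in limma. The unadjusted p of Gfi1 ran from 0.0186 to 0.0897. With each array left out Gfi1b ran from -0.37 to 0.87, and it was -0.057 without control replicate 4 and LysM-KI replicate 2 together. Klf4 ran from -0.30 to 0.35, negative without LysM-KI replicate 3, control replicate 1 or control replicate 5, and was -0.038 with cyclic loess. Gfi1 minus Gfi1b ran from 0.07 to 0.94 and Gfi1 minus Irf8 from -0.071 (without control replicate 4) to 0.68. The cause of these changes was not tested.

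The number of pairs past the adjusted threshold ran from 0 to 1 with each array left out, the 1 being Cebpd and Irf8 at 0.846 without control replicate 3. With arrays left out in turn, r ran from -0.122 to 0.189 for Cebpd and Gfi1b, -0.080 to 0.846 for Cebpd and Irf8, -0.047 to 0.817 for Gfi1 and Gfi1b, 0.215 to 0.838 for Cebpd and Klf4, -0.0054 to 0.335 for Gfi1 and Klf4, and -0.394 to 0.250 for Irf8 and Klf4. Cebpd and Gfi1b were at -0.105 with cyclic loess, -0.198 without control replicate 4 and LysM-KI replicate 2, and -0.0446 on deviations from group means. Gfi1 and Gfi1b were at -0.317 without those arrays. Without the 2 farthest arrays Cebpd and Irf8 were at -0.475, Gfi1 and Klf4 at -0.0866 and Irf8 and Klf4 at -0.302. Irf8 and Klf4 were also at -0.0029 without background correction, -0.0038 on the authors' values and -0.0925 with cyclic loess. Correlations on deviations and without the farthest arrays were chosen after seeing the data. So were the spread ratios, on all arrays and with arrays left out, and list counts and medians without control replicate 4.

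With the replicate number as a block, Gfi1 was at 0.93 (limma adjusted p = 0.876) and Irf8 at 0.59 (limma adjusted p = 0.902), and the block changed no call. By pairing, 2 of 10 arrays correlated best with their own number. As to signal over background, 4 members had no kept probe and were given no fold change, and Klf4 was measured near background.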
